A study of Mus musculus with 20 samples.

Results

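Liver taken 24 h after partial hepatectomy was compared with liver taken 12 h after it, the interval in which mouse hepatocytes pass from the early response towards DNA replication. Partial hepatectomy (PHx) is the surgical removal of part of the liver, here 70%, after which the remnant grows back. The libraries were chosen by their labelled time, 2 at 12 h and 2 at 24 h, which makes 4 of the 20 libraries of the series. Of 54532 genes in the deposited table, 10137 had an FPKM (fragments scaled by gene length and by library depth) of at least 1 in at least 2 of these 4 libraries and were tested. All 4 came from C57BL/6 mice that had the same operation and are described as freshly isolated hepatocytes in the growth protocol. The labels of replicate 1 name primary hepatocytes as the cell type, whereas those of replicate 2 name liver only. Age, sex and the hour of the operation are not given by the labels. Replicate 1 of each time belongs to the first of 2 submissions and replicate 2 to the second, so every difference was taken within a replicate number. The labels do not say that replicates were separate animals, so the p-values below rest on the spread among libraries alone, and that spread may be technical.

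After hepatectomy, quiescent hepatocytes are first primed by cytokines such as interleukin-6, which switch on immediate-early and acute-phase genes. Growth factors acting through MET and the EGF receptor then raise cyclin D1, which frees E2F transcription factors from the retinoblastoma proteins. E2F factors switch on the genes that load the MCM helicase on DNA, make deoxynucleotides and copy the genome, and mitotic genes follow later through the B-MYB and FOXM1 programme. The remnant liver also stores fat in lipid droplets for a short time during the early response, while it goes on making plasma proteins, bile and glucose.

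The libraries differed in ways other than time. Reads recovered from the steps of the FPKM values numbered 19.6 and 41.4 M at 12 h and 18.9 and 15.2 M at 24 h, in replicate 1 and 2. Reads on the mitochondrial chromosome made up 12.6% and 23.0% at 12 h and 25.1% and 6.52% at 24 h, so their order was opposite in the 2 submissions. Xist was at most 0.00754 FPKM and Ddx3y was 9.66 to 17.8 FPKM in the 4 libraries. Summed over 10 hepatocyte markers (Alb, Ttr, Apoa1 and others) the level was 26479.9 and 39611 FPKM at 12 h and 60273 and 37043 FPKM at 24 h. Summed over 12 macrophage markers it was 166 and 266 FPKM at 12 h and 468 and 342 FPKM at 24 h. The 6 erythroid markers summed to 6438 FPKM in replicate 1 of 12 h and to 82.7 to 385 FPKM in the other libraries, and the 10 neutrophil markers to 377 FPKM there and to 22.5 to 65.1 FPKM in the others. Lymphocyte markers summed to no more than 9.11 FPKM. The 8 biliary markers summed to 43.2 and 11.2 FPKM at 12 h and 42.9 and 19.0 FPKM at 24 h, although Epcam among them was at most 0.221 FPKM. The 13 endothelial markers summed to 75.5 and 106 FPKM at 12 h and 59.9 and 78.1 FPKM at 24 h. For the 14 stellate and mesenchymal markers the sums were 50.1 and 103 FPKM, then 53.1 and 57.3 FPKM. The part of these cells in the results was not tested, and in bulk RNA fewer cells of a type cannot be told apart from less RNA per cell.

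Between 12 h and 24 h, 59 genes rose (0.582% of those tested) and 95 fell (0.937%) by limma, called at a Benjamini-Hochberg adjusted p under 0.05 and a difference of at least 1 on the log2(FPKM + 1) scale. The differences ranged from 1.08 to 3.96 among the genes that rose, with a median of 1.83, and were as large as 5.66 in size among those that fell, with a median of -1.58. A description that needs no estimate of spread gave 256 genes at least 2-fold higher (2.53%) and 253 at least 2-fold lower (2.5%) in both submissions. Here and below, 2-fold is a difference of 1 on that scale, so of FPKM + 1. Of the 154 called genes, 132 were among these. The submissions resembled each other only in part: 60.4% of tested genes had the same sign, with a Spearman rho of 0.28 across genes, which are not independent replicates. Of the 10137 tested genes 3084 were higher in both submissions, 3038 were lower in both and 3979 had opposite signs. The same counts for gene lists below stand against these. Replicate 1 had 1307 genes at least 2-fold higher and 708 lower, and replicate 2 had 711 higher and 992 lower. With each library rescaled to the same sum of FPKM, limma called 34 genes higher and 22 lower, and the median difference of all genes shifted to -0.55 in replicate 1 and 0.55 in replicate 2. Scaling each library by its median ratio to the geometric mean of the libraries gave 61 higher and 93 lower, 145 of them among the 154. The count rested on single libraries: no gene was called without replicate 1 of 24 h, where 1171 had an unadjusted p under 0.05. Without the term for the submission 345 genes were called, and in a fit of the 4 libraries alone none was, with 1294 at an unadjusted p under 0.05. Without replicate 2 of 24 h, 60 genes were called, without replicate 1 of 12 h 34, and without replicate 2 of 12 h 15. Leaving out a library of another time gave 263 (either library of 6 h), 97 (48 h), 73 or 77 (72 h), 116 (7 d), 90 (14 d) and 94 (21 d).

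**Figure D1:**
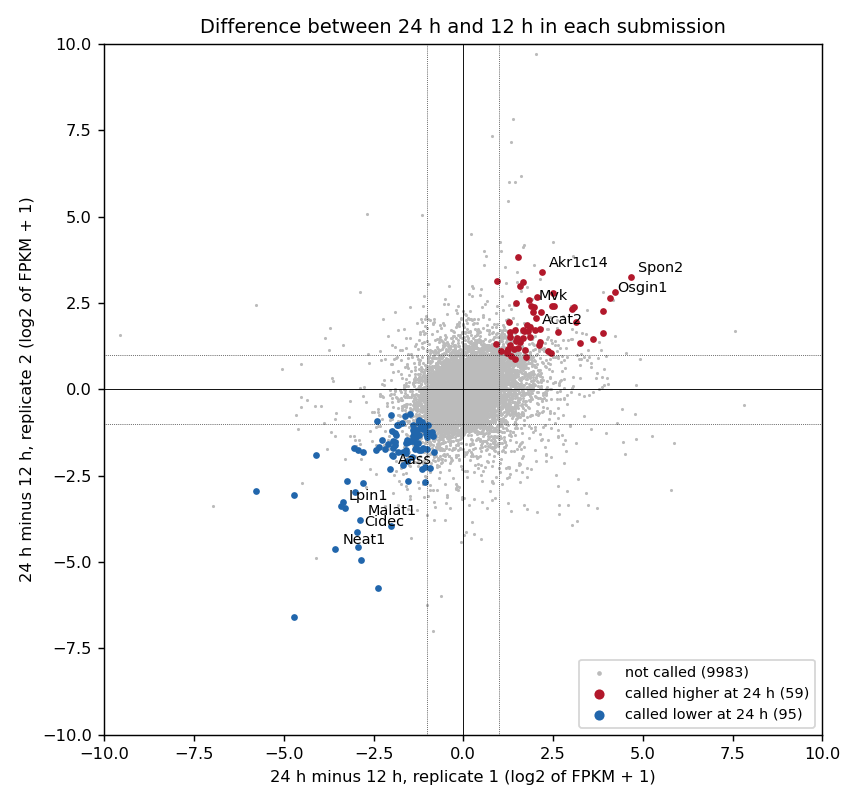
Each point is 1 of the 10137 tested genes, with its difference between 24 h and 12 h in replicate 1 on the x axis and in replicate 2 on the y axis, both on the log2(FPKM + 1) scale. The 59 red and 95 blue points are genes that limma called higher or lower, dotted lines mark a 2-fold difference, and the wide grey cloud shows how loosely the 2 submissions followed each other.

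Genes of the replication machinery were mostly higher at 24 h, while none of the helicase or fork genes passed the test. Of 23 genes for origin licensing and the helicase, 18 were higher in both submissions, 1 was lower in both and 4 went opposite ways. The 15 that were tested had a median difference of 0.75 on the log2 scale, 1.37 in replicate 1 and 0.43 in replicate 2, against 0.01 over all tested genes. After rescaling to the same sum the licensing medians were 0.76 and 0.89, against -0.55 and 0.55 over all tested genes. Mcm5 and Mcm6 then stayed past 2-fold in both submissions. Mcm5 and Mcm6, subunits of the helicase that unwinds DNA at origins, were at least 2-fold higher in both submissions. Mcm5 was at 0.271 and 0.120 FPKM at 12 h and at 5.07 and 1.42 FPKM at 24 h, where 24 and 15 reads at 12 h stand against 296 and 92. Its difference was 1.68 (SE 0.64, n = 2 per time, limma adjusted p = 0.186). Mcm6 was at 0.716 and 0.240 FPKM at 12 h and at 5.80 and 1.77 FPKM at 24 h, with a difference of 1.57 (SE 0.63, limma adjusted p = 0.203). Both 24 h libraries lay above both 12 h libraries for each gene, and replicate 1 of 24 h was the highest. Mcm3 and Mcm4 were also higher in both 24 h libraries than in either 12 h library, at 0.734, 0.921, 5.67 and 1.59 FPKM for Mcm3 and 1.17, 0.838, 5.16 and 1.56 FPKM for Mcm4, given as 12 h then 24 h with replicate 1 first. Mcm7 was at 1.998 and 2.14 FPKM at 12 h and at 6.595 and 2.49 FPKM at 24 h. Mcm2 was below the filter, at 0.389 and 0.529 FPKM at 12 h and 2.54 and 0.514 FPKM at 24 h, so that only replicate 1 was higher. Cdt1, which loads the helicase together with Cdc6, went from 0.503 and 0.438 FPKM to 3.33 and 1.32 FPKM. Cdc6 itself reached only 0.732 and 0.118 FPKM at 24 h, on 56 and 10 reads.

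Fork genes followed the same pattern at smaller size. Of 28, 20 were higher in both submissions, none was lower in both and 8 went opposite ways, and the 17 tested had a median difference of 0.40 (0.69 in replicate 1 and 0.26 in replicate 2). After rescaling to the same sum the fork medians were 0.09 and 0.75, against -0.55 and 0.55 over all tested genes. Pcna, the sliding clamp of the DNA polymerases, was the most abundant of those named here, at 6.56 and 5.78 FPKM at 12 h and 15.2 and 10.5 FPKM at 24 h. Its difference of 0.93 (SE 0.43) did not pass (limma adjusted p = 0.262). Rfc2 and Rfc3, parts of the clamp loader, went from 3.04 and 2.34 to 5.60 and 4.53 FPKM and from 1.05 and 0.585 to 2.73 and 1.37 FPKM. Lig1, the ligase that joins Okazaki fragments, went from 0.285 and 0.127 FPKM to 1.46 and 0.635 FPKM. Uhrf1, which carries DNA methylation through replication, was at 0.0424 and 0.0976 FPKM at 12 h and 2.25 and 0.304 FPKM at 24 h.

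Of 11 genes of deoxynucleotide synthesis, 6 were higher in both submissions and none was lower in both. The 8 that were tested had a median difference of 0.52, with 0.64 in replicate 1 and 0.53 in replicate 2, and 0.26 and 0.90 after rescaling to the same sum. Tk1, the thymidine kinase of the salvage pathway, went from 0.313 and 0.572 FPKM to 1.95 and 1.54 FPKM. It had a limma adjusted p of 0.0477, but its difference of 0.93 on the log2(FPKM + 1) scale was short of the threshold of 1. At such low levels the added 1 makes the difference smaller than that of the FPKM themselves. Dut, which removes dUTP, went from 1.37 and 0.425 FPKM to 5.05 and 3.04 FPKM (limma adjusted p = 0.0917). The subunits of ribonucleotide reductase were little apart in replicate 2: Rrm1 had a difference of 0.69 in replicate 1 and 0.11 in replicate 2, and Rrm2 of 0.78 and -0.11.

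Among regulators of G1, Ccnd1 was at least 2-fold higher in both submissions. This gene for cyclin D1 was at 1.79 and 0.727 FPKM at 12 h and 12.5 and 3.38 FPKM at 24 h, a difference of 1.81 (SE 0.59, limma adjusted p = 0.136). E2f1, itself an E2F target, went from 0.172 and 0.446 FPKM to 3.16 and 0.958 FPKM and was not tested because of its low level. Myc, at 4.37 and 3.12 FPKM at 12 h and 4.28 and 3.47 FPKM at 24 h, and Cdk4, at 10.9 and 9.46 FPKM and then 8.82 and 9.54 FPKM, had overlapping libraries. Cdkn1a, which encodes the CDK inhibitor p21, was at least 2-fold lower in both submissions, at 21.8 and 50.8 FPKM at 12 h and 6.52 and 6.42 FPKM at 24 h. The 12 h libraries differed widely for Cdkn1a, and its difference of -2.20 (SE 0.84) did not pass (limma adjusted p = 0.185). Of 13 tested p53 targets Plk3 fell, Fas was at least 2-fold higher in both submissions and the median was 0.18. Plk3, a stress-induced polo-like kinase, was at 40.7 and 47.0 FPKM at 12 h and 14.3 and 11.4 FPKM at 24 h, a difference of -1.70 (SE 0.30, limma adjusted p = 0.0297). It was higher still at 6 h, at 136 and 115 FPKM. After rescaling to the same sum Plk3 was not called, but it stayed past 2-fold lower in both submissions. Fas, the death receptor, went from 8.95 and 10.2 FPKM to 20.7 and 24.98 FPKM, and did not stay past 2-fold in both submissions after rescaling to the same sum.

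Mitotic genes were at low levels at both times. Of 35 genes of mitosis and cytokinesis 2 were tested, and 28 were under 1 FPKM in all 4 libraries. At these levels 21 were higher at 24 h in both submissions, 1 was lower in both and 9 had opposite signs. Cdk1, the mitotic kinase, was at 0.0640 and 0.175 FPKM at 12 h and 1.496 and 0.300 FPKM at 24 h. Mki67, the proliferation marker Ki-67, was at 0.224 and 0.194 FPKM and then 0.455 and 0.129 FPKM. The mean log2(FPKM + 1) over the 35 genes was 0.28 and 0.25 at 12 h and 0.64 and 0.27 at 24 h, so replicate 2 of 24 h lay between the 12 h libraries and replicate 1 above them. At 6 h it was 0.49 and 0.56. At 48 h it was 2.34 in replicate 1 and 0.56 in replicate 2, and at 72 h it was 2.48 and 2.15. By contrast the mean over the 23 licensing genes went from 0.90 and 0.95 at 12 h to 1.80 and 1.24 at 24 h, and was 1.70 and 1.37 at 48 h. Replicate 1 was thus higher than replicate 2 at both 24 h and 48 h in both lists.

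**Figure D2:**
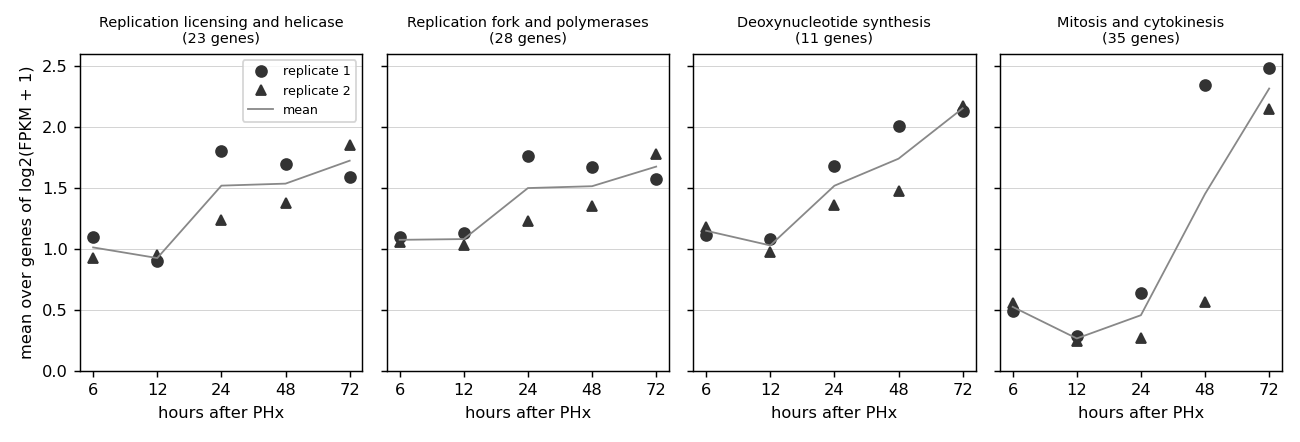
Mean level over all genes of 4 cell cycle lists (y axis, log2(FPKM + 1)) at 6 to 72 h after PHx (x axis, not to scale), with circles for replicate 1, triangles for replicate 2 and a line for their mean. The replication lists were higher at 24 h than at 12 h in both replicates, whereas the mitosis list stayed under 0.7 at both times and was above 2 in replicate 1 of 48 h and in both libraries of 72 h.

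E2F factors bind a short element near the start of replication genes, and late genes carry a cell cycle homology region (CHR), so the promoters of both groups are shown. The RefSeq table for GRCm38.p6 gives 250 bases before and 50 after each start. In it the E2F letters TTTCCCGC, TTTGGCGC, TTTCGCGC or TTTGCCGC, on either strand, were found in 9 of 18 licensing genes and 8 of 24 fork genes listed there. The share was 2.6% of all 27025 genes and 4.46% of tested genes. The CHR letters TTTGAA were found in 20 of 29 mitotic genes and in 5 of the 18 licensing genes, against 20.2% of all genes and 13.8% of tested genes. These matches describe the letters only. Of the 59 genes that rose, 42 were listed and 2 of those (4.76%) held the E2F letters, near the share of tested genes. Capitals mark the match in the windows of Mcm5, Mcm6 and Cdc6 for E2F and of Cdk1 and Mki67 for CHR, each read on the strand of its gene. In Mcm5 and Mcm6 a second E2F match overlaps the one in capitals. The Mki67 window holds a second CHR match, which is left in lower case.
Mcm5, chr8:75109331-75109388, + strand: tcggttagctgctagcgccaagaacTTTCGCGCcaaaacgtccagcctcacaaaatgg
Mcm6, chr1:128359783-128359840, - strand: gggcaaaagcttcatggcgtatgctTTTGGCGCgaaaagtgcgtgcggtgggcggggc
Cdc6, chr11:98907988-98908045, + strand: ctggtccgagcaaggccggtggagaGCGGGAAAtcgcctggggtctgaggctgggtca
Cdk1, chr10:69352953-69353008, - strand: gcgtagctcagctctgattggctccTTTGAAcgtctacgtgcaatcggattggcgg
Mki67, chr7:135716465-135716520, - strand: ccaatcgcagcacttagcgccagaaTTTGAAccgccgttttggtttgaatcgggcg

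Genes of cholesterol synthesis and uptake stood higher at 24 h. Of 25 members, all tested, 11 were at least 2-fold higher in both submissions, none was at least 2-fold lower in both, and the median difference was 1.48 (0.93 in replicate 1 and 1.998 in replicate 2). Acat2 and Mvk were among those that rose. Acat2, the cytosolic thiolase that makes acetoacetyl-CoA, was at 4.51 and 4.32 FPKM at 12 h and 20.8 and 16.6 FPKM at 24 h, a difference of 1.85 (SE 0.38, limma adjusted p = 0.0432). Mvk, mevalonate kinase, was at 1.45 FPKM in both libraries of 12 h and at 8.08 and 12.1 FPKM at 24 h, a difference of 2.16 (SE 0.44, limma adjusted p = 0.0427). In Mvk and Acat2 the 12 h libraries were close to each other and both 24 h libraries were far above them. After rescaling to the same sum no member of the list was called, the medians were 0.29 in replicate 1 and 2.65 in replicate 2, and Acat2, Hmgcs1 and Mvk were the members still at least 2-fold higher in both submissions.

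Besides Acat2 and Mvk, the members past 2-fold in both submissions included Hmgcs1, Cyp51, Fdft1, Nsdhl, Msmo1, Sc5d and Insig1. Hmgcs1, an early synthase of the pathway, was at 13.5 and 9.60 FPKM at 12 h and 48.6 and 80.9 FPKM at 24 h (limma adjusted p = 0.112). Fdft1, which commits the pathway to sterols, went from 7.83 and 2.56 FPKM to 18.8 and 40.8 FPKM (limma adjusted p = 0.0514). Insig1, the retention factor that holds the sterol sensor in the endoplasmic reticulum, went from 12.3 and 6.41 FPKM to 36.7 and 76.6 FPKM (limma adjusted p = 0.0858). Hmgcs1, Fdft1 and Insig1 each had the larger difference in replicate 2. Ebp, Tm7sf2, Lss, Fdps, Mvd and Hsd17b7 had opposite signs in the 2 submissions. Fdps, for example, was at 1.56 and 0.152 FPKM at 12 h and 0.276 and 2.91 FPKM at 24 h, and its reads can be shared with near-identical copies. Srebf2, the sterol-regulated transcription factor of the pathway, went from 5.27 and 4.16 FPKM to 5.96 and 7.59 FPKM.

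A sterol element, here the letters TCACCCCA on either strand, was found in the promoter of 2 of 17 listed members, Hmgcs1 and Srebf2, against 1.77% of all genes. The letters were also found in 2 of 16 listed genes of the urea cycle and amino acid catabolism, so they were not particular to this list. The window of Hmgcs1 is shown because this gene stayed past 2-fold in both submissions after rescaling to the same sum.
Hmgcs1, chr13:119690189-119690246, + strand: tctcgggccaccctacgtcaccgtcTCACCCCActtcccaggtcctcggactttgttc

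Several lipid droplet genes went the other way. Of the 20 members 9 were lower in both submissions, 3 were higher in both and 7 had opposite signs, and the median over all 20 was -0.49. Of 16 tested members of 20, Cidec and Lpin1 fell, 5 were at least 2-fold lower in both submissions, none was at least 2-fold higher in both, and the median was -0.86 (-0.56 in replicate 1 and -1.12 in replicate 2). Cidec, which fuses small droplets into large ones, was at 62.7 and 137 FPKM at 12 h and 7.18 and 6.97 FPKM at 24 h, a difference of -3.54 (SE 0.57, limma adjusted p = 0.0218). Lpin1, the phosphatidate phosphatase of triglyceride synthesis, was at 20.2 and 23.3 FPKM and then 1.004 and 1.35 FPKM, a difference of -3.39 (SE 0.64, limma adjusted p = 0.0341). Both were high already at 6 h, Cidec at 50.8 and 99.8 FPKM and Lpin1 at 8.58 and 17.3 FPKM, and both stayed called after rescaling to the same sum. Cidec, Lpin1 and Plin2 then were the members of the 5 still past 2-fold in both submissions. Plin2, the main coat protein of hepatocyte droplets, was at 818 and 740 FPKM at 12 h and 135 and 149 FPKM at 24 h, with close replicates at each time, a difference of -2.45 (SE 0.61) and a limma adjusted p of 0.0718. Plin4 and G0s2, the latter an inhibitor of the lipase ATGL, went from 20.4 and 3.28 FPKM to 0.651 and 0.811 FPKM and from 182 and 211 FPKM to 19.6 and 82.2 FPKM. Cideb went the opposite way to Cidec, from 11.8 and 5.48 FPKM to 17.8 and 27.8 FPKM. Among fatty acid synthesis genes Srebf1, the lipogenic transcription factor, went from 4.53 and 6.24 FPKM to 18.8 and 20.8 FPKM, and Acly, which makes cytosolic acetyl-CoA, from 8.28 and 3.74 FPKM to 17.7 and 14.8 FPKM, with limma adjusted p of 0.160 and 0.110. Fasn, at 12.2 and 15.4 FPKM and then 11.5 and 7.65 FPKM, was not higher at 24 h. No lipogenesis gene among 17 tested was called.

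**Figure D3:**
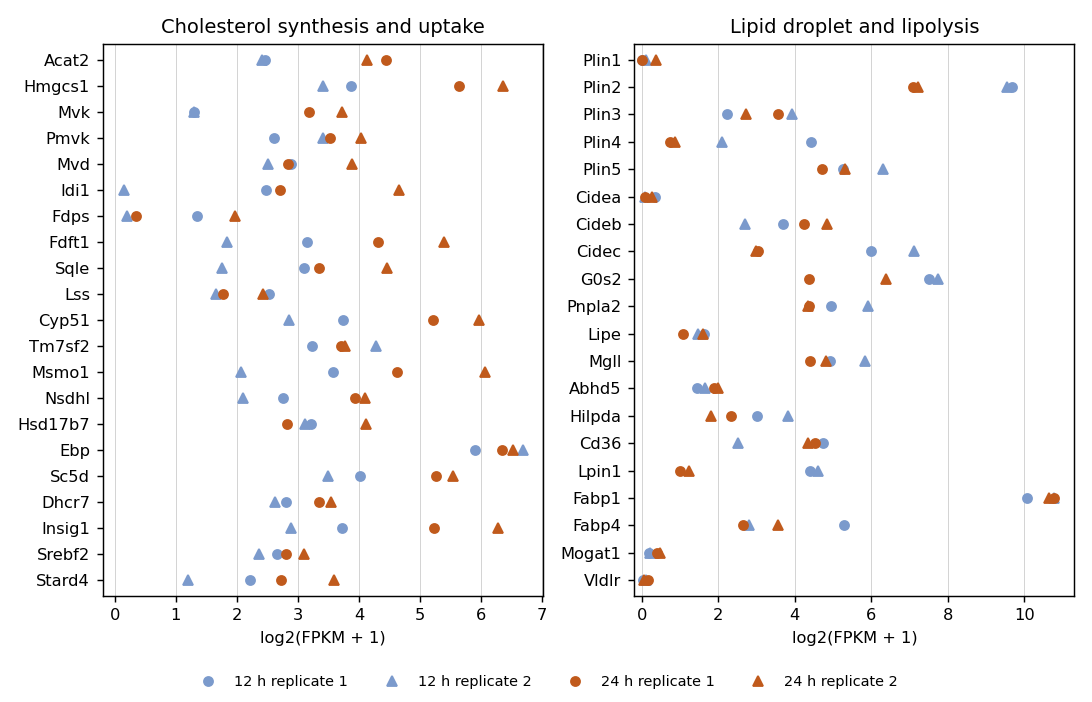
Level of genes of the cholesterol list (left) and the lipid droplet list (right) on the x axis in log2(FPKM + 1), blue for 12 h and orange for 24 h, with circles for replicate 1 and triangles for replicate 2. Orange lies to the right of blue for most cholesterol genes (Mvk 1.45 FPKM in both 12 h libraries against 8.08 and 12.1 FPKM), and to the left for Plin2, Cidec, Plin4, G0s2 and Lpin1.

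The 12 genes with the largest rise among those named by rule were Spon2, Apol7a, Osgin1, Hsd3b3, Akr1c14, Serpind1, Adh4, Ly6e, Keg1, Aldh1b1, Akr1c19 and Akr1c6. Spon2, a secreted matrix protein, was at 0.306 and 0.271 FPKM at 12 h and 32.3 and 11.1 FPKM at 24 h, a difference of 3.96 (SE 0.71, limma adjusted p = 0.0297). It lies on chr5:33198184-33218455, minus strand, in GRCm38. Its level at 6 h was 0.522 and 0.760 FPKM and at 48 h 2.59 and 1.09 FPKM, and at 72 h 6.06 and 2.27 FPKM, so among these times the 24 h libraries were the highest. Osgin1, an oxidative stress response gene, was at 6.14 and 10.9 FPKM and then 120 and 73.9 FPKM, a difference of 3.37 (SE 0.47, limma adjusted p = 0.0173). Apol7a, of the apolipoprotein L family, went from 2.16 and 2.77 FPKM to 57.9 and 25.7 FPKM. Serpind1, heparin cofactor II, an inhibitor of thrombin, went from 18.6 and 45.2 FPKM to 289 and 142 FPKM. Ly6e, a membrane-anchored surface protein, went from 33.7 and 20.9 FPKM to 283 and 109 FPKM. The others ranged in difference from 2.46 (Akr1c6) to 3.08 (Hsd3b3).

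Akr1c14, Akr1c19, Akr1c6, Hsd3b3, Adh4 and Aldh1b1 of that group encode enzymes. Akr1c6, an aldo-keto reductase that acts on ketosteroids, went from 40.0 and 57.4 FPKM to 233 and 308 FPKM (difference 2.46, SE 0.44, limma adjusted p = 0.0297). Akr1c14 and Akr1c19, neighbours of Akr1c6 on chromosome 13, went from 5.20 and 4.61 FPKM to 27.3 and 58.1 FPKM and from 0.506 and 1.26 FPKM to 12.2 and 7.71 FPKM. Hsd3b3, a hydroxysteroid dehydrogenase, went from 0.339 and 1.43 FPKM to 18.8 and 10.8 FPKM. The Akr1c, Hsd3b and Apol7 genes belong to families of related genes, and the sources used here do not say how reads that match more than 1 member were shared out. Adh4, an alcohol dehydrogenase that also oxidises retinol, went from 19.8 and 8.60 FPKM to 58.8 and 137 FPKM, and Aldh1b1, a mitochondrial aldehyde dehydrogenase, from 2.59 and 3.19 FPKM to 42.9 and 10.6 FPKM. The replicates at 24 h were far apart for Adh4 and Aldh1b1 and in opposite order. Adh4 and Ly6e were the 2 of these 12 that were no longer called after rescaling to the same sum.

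Of the 12 named genes that fell, Neat1, Malat1, Mir6397 and Rnu73b make RNA that is not translated. Neat1, the long RNA that scaffolds nuclear paraspeckles, was at 67.9 and 65.7 FPKM at 12 h and 4.78 and 1.69 FPKM at 24 h, a difference of -4.11 (SE 0.81, limma adjusted p = 0.0373). Malat1, a long RNA of nuclear speckles and its neighbour on chromosome 19, was at 37.7 and 43.7 FPKM and then 4.28 and 2.22 FPKM, a difference of -3.34 (SE 0.54, limma adjusted p = 0.0218). In both genes the replicates at 12 h were close and every 24 h library was far below them. At 6 h Neat1 was at 19.9 and 135 FPKM, and at 48 h it was at 5.56 and 2.88 FPKM. Mir6397 lies within Scp2, on its opposite strand, and Rnu73b within Rps3a1 on the same strand. Scp2 was at 651 and 585 FPKM at 12 h and 601 and 747 FPKM at 24 h, and Rps3a1 at 239 and 405 FPKM and then 318 and 409 FPKM, so neither was lower at 24 h in both submissions. How reads were shared between these overlapping features is not known, and both small RNA genes are uncertain.

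The coding genes of that group included a growth factor and a carrier. Nrg4, a hepatic ligand of the ERBB4 receptor, was at 17.6 and 17.1 FPKM at 12 h and 0.821 and 0.873 FPKM at 24 h, a difference of -3.31 (SE 0.52, limma adjusted p = 0.0218). It overlaps Fbxo22 on the other strand, whose libraries overlapped between times at 11.0 to 23.8 FPKM. Slc25a51, the mitochondrial carrier of NAD, was at 70.7 and 55.0 FPKM and then 9.28 and 7.52 FPKM, a difference of -2.76 (SE 0.34, limma adjusted p = 0.0140). B3galt1, a galactosyltransferase, went from 19.1 and 28.9 FPKM to 1.13 and 3.79 FPKM. Bmper, which binds bone morphogenetic proteins, Rsad1 and the ubiquitin ligase gene Trim39 had 12 h libraries that were far apart, at 22.1 and 3.73 FPKM for Bmper, 18.6 and 5.33 FPKM for Rsad1 and 18.4 and 6.76 FPKM for Trim39. Their 24 h libraries were between 0.281 and 1.54 FPKM. These 3 and B3galt1 were not called after rescaling to the same sum. Of the 32 called genes chosen by rule, 9 lost the call with a pseudocount of 0.1 and 17 with no filter on low values. Rescaling to the same sum ended 13 of the 32 calls. In the fits of the 4 libraries alone, with or without a replicate block, all 32 were lost.

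**Figure D4:**
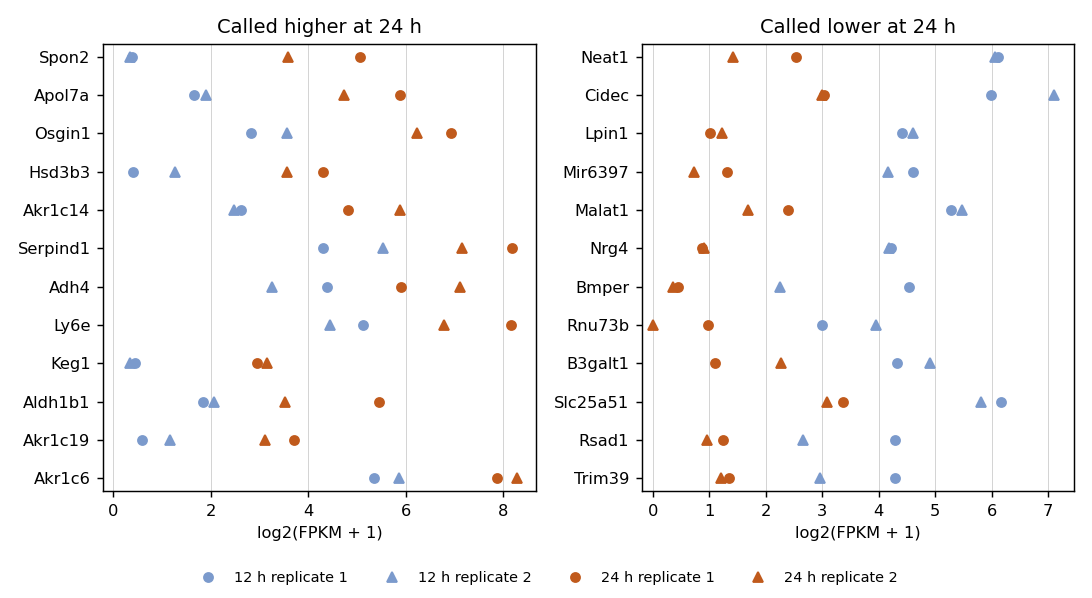
Level in log2(FPKM + 1) on the x axis of the 12 genes with the largest rise (left) and the 12 with the largest fall (right), blue for 12 h and orange for 24 h, circles for replicate 1 and triangles for replicate 2. Both libraries of one time lie to one side of both libraries of the other, which the rule for naming these genes required, as in Neat1 with 67.9 and 65.7 FPKM at 12 h and 4.78 and 1.69 FPKM at 24 h.

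Among 22 genes of bile acid synthesis and transport, 9 were higher at 24 h in both submissions, 3 were lower in both and 9 had opposite signs. Over all 10137 tested genes these counts were 3084, 3038 and 3979. Slco1b2, an uptake carrier for bile acids and bilirubin in the sinusoidal membrane, rose from 42.0 and 27.3 FPKM to 136 and 244 FPKM, a difference of 2.40 (SE 0.51, limma adjusted p = 0.0477), and was not called after rescaling to the same sum. Of 20 tested genes of the list it alone was called, and Slc10a1 and Nr0b2 were also at least 2-fold higher in both submissions. Of these 3 genes Nr0b2 was still past 2-fold in both after rescaling. Slc10a1, the sodium-dependent uptake carrier NTCP, went from 35.4 and 62.4 FPKM to 109 and 154 FPKM. Nr0b2, the bile acid-induced repressor SHP, went from 0.0399 and 5.06 FPKM to 196 and 18.6 FPKM, with the first value resting on almost no reads. Synthesis enzymes had opposite signs: Cyp7a1, the rate-limiting enzyme of bile acid synthesis, was at 1.59 and 0.245 FPKM at 12 h and 0.164 and 40.1 FPKM at 24 h, and Cyp8b1 at 19.5 and 38.5 FPKM and then 0.561 and 134 FPKM. In replicate 1 of 24 h, Nr0b2 was at its highest and Cyp7a1 at its lowest of the 4 libraries. None of 31 tested cytochrome P450 and conjugation genes was called, and Cyp2j5 was the member at least 2-fold higher in both submissions, from 74.6 and 73.7 FPKM to 174 and 198 FPKM. It was short of that in 1 submission after rescaling. Cyp3a11, an enzyme of drug metabolism, was at 60.3 and 293 FPKM and then 3583 and 99.1 FPKM, so its order was opposite in the submissions.

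Glucose and amino acid genes were split. Slc2a2, the glucose carrier GLUT2, went from 6.85 and 6.59 FPKM to 68.4 and 23.1 FPKM. Ppp1r3b and Ppp1r3c, which direct protein phosphatase 1 to glycogen, went from 3.51 and 2.01 FPKM to 9.28 and 24.4 FPKM and from 2.47 and 1.18 FPKM to 9.98 and 36.7 FPKM. These 3 of 21 tested were at least 2-fold higher in both submissions and none was called (limma adjusted p = 0.0858 to 0.142). Ppp1r3b did not stay past 2-fold in both after rescaling. Pck1 and G6pc, the first and last enzymes of gluconeogenesis that are under hormonal control, had opposite signs in the submissions, with differences of 0.66 and -1.72 for Pck1 and -1.20 and 1.59 for G6pc. Aass, the first enzyme of lysine breakdown, fell from 290 and 332 FPKM to 70.2 and 66.2 FPKM, a difference of -2.17 (SE 0.38, limma adjusted p = 0.0297), the single call among 25 genes of the urea cycle and amino acid catabolism. Asl, Tat and Mat1a, of the urea cycle and of tyrosine and methionine metabolism, were at least 2-fold lower in both submissions. Mat1a was not after rescaling. Tat went from 839 and 1456 FPKM to 389 and 343 FPKM, whereas Bhmt, of the methionine cycle, went from 67.9 and 161 FPKM to 742 and 494 FPKM. In fatty acid oxidation and ketogenesis, no gene of 29 was called. Angptl4, a secreted lipase inhibitor, was at least 2-fold lower in both submissions, at 93.4 and 123 FPKM and then 21.7 and 39.7 FPKM, and Bdh1, a ketone body enzyme, higher, at 10.1 and 10.4 FPKM and then 33.2 and 32.0 FPKM. Neither Angptl4 nor Bdh1 stayed past 2-fold in both after rescaling.

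Genes of the early response had no common direction. Of 24 immediate-early genes 20 were tested, none was called, and 16 had opposite signs in the submissions. Their median was 0.75 in replicate 1 and -1.11 in replicate 2. Jun was at 4.61 and 21.7 FPKM at 12 h and 11.7 and 3.67 FPKM at 24 h, and Fos at 0.748 and 6.02 FPKM and then 4.56 and 0.839 FPKM, so replicate 2 of 12 h and replicate 1 of 24 h were high. Klf10 and Ier3 were at least 2-fold lower in both submissions, Klf10 at 13.6 and 7.45 FPKM and then 1.72 and 2.96 FPKM. Ier3 stayed so after rescaling and Klf10 did not. Among 31 tested genes of interleukin-6 signalling and the acute phase none was called. Il1r1, the receptor of interleukin-1, was at 83.1 and 76.2 FPKM at 12 h and 11.9 and 9.82 FPKM at 24 h, with close replicates at each time, a difference of -2.77 (SE 0.66, limma adjusted p = 0.0631). Crp and Cp, for C-reactive protein and ceruloplasmin, were at least 2-fold higher in both submissions, Cp at 72.5 and 58.7 FPKM and then 395 and 161 FPKM. Cp stayed so after rescaling and Crp did not. The serum amyloid gene Saa1 was at 3029 and 8941 FPKM and then 3520 and 4222 FPKM, with overlapping libraries, and shares reads with Saa2.

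Ribosome and protein folding genes gave smaller differences. Of 25 ribosome biogenesis genes, all tested, 20 were lower in both submissions, 1 was higher in both and the median was -0.42 (-0.38 and -0.53). After rescaling to the same sum the median was -1.01 in replicate 1 and 0.14 in replicate 2. The medians of all tested genes were then -0.55 and 0.55. The sign in replicate 2 thus changed with the scaling, but the list stayed below all tested genes in both replicates. Mybbp1a, a nucleolar repressor of ribosomal DNA transcription, fell from 14.7 and 22.7 FPKM to 6.80 and 6.11 FPKM, a difference of -1.37 (SE 0.28, limma adjusted p = 0.0427), and was not called after that rescaling. Of 21 unfolded protein response genes 11 were lower in both submissions and 4 higher, with a median of -0.39. After the same rescaling it was -1.30 in replicate 1 and 0.58 in replicate 2, the latter close to that of all tested genes. Creld2 and Manf, secreted proteins induced by stress of the endoplasmic reticulum, were at least 2-fold lower in both submissions, Manf at 165 and 149 FPKM and then 68.3 and 66.0 FPKM. Neither stayed past 2-fold in both after the rescaling. Of 16 heat shock and chaperonin genes 12 were higher in both submissions and none lower, with a median of 0.62. After rescaling it was -0.26 in replicate 1 and 1.29 in replicate 2, above all tested genes in both. Hsp90ab1 was at 101 and 139 FPKM and then 195 and 250 FPKM.

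Of 16 clock genes of the negative arm and outputs, 3 were higher in both submissions, 7 were lower in both and 6 had opposite signs. In the positive arm 6 of 7 had opposite signs. Over all tested genes 3979 of 10137 did, so the count in the negative arm was near that share. Per1 and Per2, repressors of the clock, were at least 2-fold lower at 24 h in both submissions, Per1 at 9.17 and 22.5 FPKM at 12 h and 2.50 and 1.13 FPKM at 24 h and Per2 at 8.03 and 6.31 FPKM and then 2.61 and 1.22 FPKM. Per1 had a difference of -2.50 (SE 0.61) and a limma adjusted p of 0.0688, and was called after rescaling to the same sum. Wee1, a clock-controlled kinase that holds back mitosis, was at least 2-fold higher in both submissions, at 0.515 and 0.477 FPKM and then 2.70 and 2.38 FPKM (limma adjusted p = 0.199), but was short of 2-fold in 1 of them after rescaling. Dbp, Nr1d1 and Arntl had opposite signs in the submissions. Dbp, an output regulator, went from 1.10 to 7.72 FPKM in replicate 1 and from 1.68 to 0.741 FPKM in replicate 2. Nr1d1, which encodes the repressor REV-ERBα, went from 3.11 to 8.13 FPKM and from 5.33 to 1.22 FPKM. Arntl, which encodes the activator BMAL1, went from 1.45 to 0.536 FPKM in replicate 1 and from 0.391 to 2.79 FPKM in replicate 2. The 24 h library of replicate 1 was thus high in Dbp and Nr1d1 and low in Arntl, and that of replicate 2 the reverse. The time of day at which the livers were taken is not given in the sources used here, and its part in any gene of these 4 libraries was not tested.

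**Figure D5:**
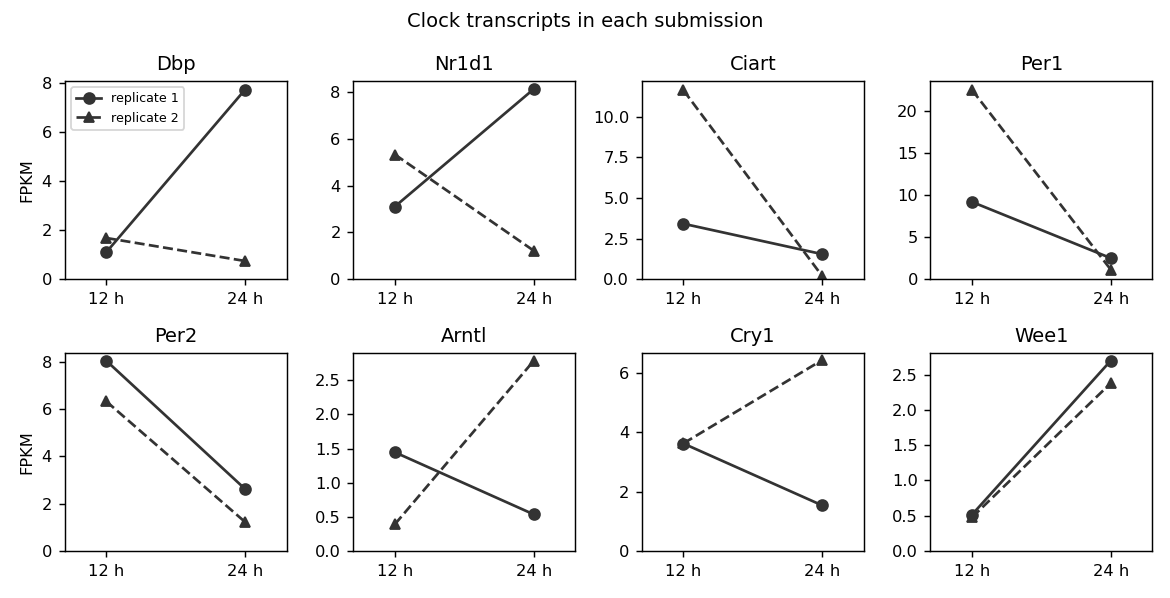
FPKM of 8 clock transcripts at 12 h and 24 h (x axis), with circles and solid lines for replicate 1 and triangles and broken lines for replicate 2. The lines run the same way for Per1, Per2, Ciart and Wee1 and cross or part for Dbp, Nr1d1, Arntl and Cry1.

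The E-box, the letters CACGTG bound by the BMAL1 and CLOCK pair, was found in the promoter of 5 of 13 listed genes of the negative arm and outputs. That stands against 8.09% of all genes and 12% of tested genes. The E-box was also found in 6 of 19 listed immediate-early genes and 6 of 20 of ribosome biogenesis. The window of Per1 is given because this gene was at least 2-fold lower in both submissions before and after rescaling to the same sum. The letters read the same on both strands.
Per1, chr11:69098758-69098813, + strand: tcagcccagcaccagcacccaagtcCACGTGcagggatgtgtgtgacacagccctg

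Markers of cells other than hepatocytes moved as follows. Of 12 Kupffer cell and macrophage markers 9 were higher at 24 h in both submissions, none lower, and Cd5l, Vsig4 and Adgre1 were at least 2-fold higher in both, with a median of 0.97 and no call. Cd5l, secreted by macrophages, went from 14.2 and 15.9 FPKM to 91.5 and 67.3 FPKM. Cd5l and Adgre1 stayed past 2-fold in both after rescaling to the same sum and Vsig4 did not. Of 13 endothelial markers 2 were higher in both submissions, 7 were lower in both and 4 had opposite signs. The 12 tested had a median of -0.08 and no call. Lyve1, of the sinusoid, was the member at least 2-fold lower in both, at 11.7 and 18.7 FPKM and then 2.90 and 4.12 FPKM. Retnlg and S100a9 of the neutrophil list were at least 2-fold lower in both submissions, and S100a9 was at 206 FPKM in replicate 1 of 12 h, at 32.1 FPKM in replicate 2 of 12 h and at 34.6 and 10.9 FPKM at 24 h. Retnlg stayed past 2-fold in both after rescaling and S100a9 did not. The globin gene Hbb-bs was at 2955 FPKM in replicate 1 of 12 h and at 21.3 to 115 FPKM in the other 3 libraries. Of 14 stellate and mesenchymal markers 6 were higher in both submissions, 3 were lower in both and 4 had opposite signs. The 9 tested had a median of 0.34. Among 8 biliary markers these counts were 3, 1 and 3, and the 3 tested had a median of 0.39. No stellate, mesenchymal or biliary marker was called.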

How the data were processed

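RNA-seq of mouse liver was deposited as 1 table of FPKM made by the authors, with genes in rows and 20 libraries in columns. The submitters' processing notes list HISAT2 2.0.5 and mm10. How reads were counted, with which annotation and strand setting, and how libraries were scaled is not given in the sources used here. The members and gene lists were chosen with earlier results of these data known. Genes with an FPKM of at least 1 in at least 2 of the 4 libraries were kept, a pseudocount of 1 was added and log2 taken, so fold changes of low genes are understated. limma 3.58.1 in R 4.3.3 (trended, robust) was fitted to the 16 PHx libraries with a mean for each time and a term for the submission, which left 7 residual degrees of freedom. A gene was called at a Benjamini-Hochberg adjusted p under 0.05 over all 10137 genes and a log2 difference of at least 1. The series text says that the libraries numbered 2 are a later submission; the deviations of the same number correlated at -0.206 between 12 h and 24 h, and over 0.1 in 5 of 28 pairs of times. Read numbers came from the FPKM steps, where 98.1% to 98.7% of low values were whole within 0.05 reads. Named genes were the 12 with the largest change per direction among called genes with an FPKM of at least 5 at the higher time (predicted genes and pseudogenes left out), up to 3 per list, and the cell cycle, clock and marker lists. Symbols came from GENCODE M21 and promoters from RefSeq. Some members of the lists are not reported here. The fit was tested on simulated data. Alternatives changed the block, libraries, pseudocount, filter and scaling. Python 3.11.15, numpy 2.4.6 and pandas 2.3.3 were used.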

Additional observations from a re-analysis of the deposited data

Results flagged for a closer look

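The 2 submissions moved in opposite directions in 2 results, and the difference between them was not tested. The 13 mitochondrially encoded mRNAs had a median difference between 24 h and 12 h of 2.04 on the log2(FPKM + 1) scale in replicate 1 and of -2.53 in replicate 2, and all 13 went opposite ways. Nr1d1, the gene of REV-ERBα, had a difference of 1.15 in replicate 1 and -1.51 in replicate 2.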

How the results depend on the processing

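The number of calls depended on the fit. No alternative turned the direction of a called gene named by rule, but most had no means to do so. Changing the block, the filter or the libraries of other times leaves the difference itself as it was. Leaving out 1 of the 4 libraries had little room to turn it, because no called gene had libraries that overlapped between 12 h and 24 h. Calls are given as a share of the genes tested, 1.52% in the report's fit (0.582% higher, 0.937% lower). With no replicate block the share was 3.4% (345 genes; 1.66% higher, 1.75% lower), 152 of them among the 154, and 1 named call, Rnu73b, was lost. In the 4 libraries alone limma called 0 genes (0 higher, 0 lower) both with the replicate block and without it, where 1294 and 1818 had an unadjusted p under 0.05. With the numbers crossed in the block, an alternative chosen after seeing the data, as was the fit of 4 libraries without a block, the share was 4.97% (2.53% higher, 2.45% lower). In the crossed pairs 617 genes were past 2-fold in both (343 higher, 274 lower), against 509 in the pairs of the same number. Being past 2-fold in both was thus not particular to pairs of the same submission. A pseudocount of 0.1 gave 101 genes (0.996%; 0.503% lower), and 912 past 2-fold in both submissions (427 higher, 485 lower). No filter on low values gave 87 of 19287 genes (0.451%; 0.145% higher, 0.306% lower). A filter at 5 FPKM left 4848 genes, of which 61 (1.26%) were called lower and 161 were past 2-fold lower in both. Rescaling to the same sum gave 56 (0.552%; 0.335% higher, 0.217% lower), 37 of them among the 154. Leaving out 1 library gave 0% to 2.59% called, 0% to 1.07% higher and 0% to 1.53% lower. The cause of these changes was not tested. With 2 libraries per time and 15.2 to 41.4 M reads, genes near 1 FPKM rest on few reads.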

Other observations

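Genes in the next paragraphs were chosen after their values were seen, and no group of them was tested as a group. Several called genes that fell act in the nucleus, besides Neat1 and Malat1. Pspc1, a protein of paraspeckles, was at 4.08 and 3.28 FPKM at 12 h and 0.966 and 0.774 FPKM at 24 h, a difference of -1.32 (limma adjusted p = 0.0218). Son, a scaffold of nuclear speckles, was at 16.7 and 13.2 FPKM and then 6.55 and 6.27 FPKM. Ccnl1, a cyclin linked to splicing, was at 19.8 and 25.2 FPKM and then 5.43 and 4.73 FPKM. The histone methyltransferase genes Kmt2b and Dot1l had differences of -1.35 and -1.10, and the chromatin remodeller Chd3 of -1.43. The snoRNA host genes Snhg12, Snhg15 and Zfas1 had differences of -1.46, -1.66 and -1.74.

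Noncoding genes made up 16 of the 95 genes that fell and 4 of the 59 that rose, among 486 noncoding genes tested. Coding genes that fell had a median exon length of 5623 bases (n = 75), those that rose 2920 bases (n = 54) and those not called 4116 bases (n = 9010). Across coding genes, which are not independent replicates, exon length and difference had a Spearman rho of -0.26 in replicate 1 and of -0.0036 in replicate 2.

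Other called genes that rose included Lipa, the lysosomal acid lipase, at 19.6 and 24.8 FPKM and then 87.6 and 61.7 FPKM, and Cyp2r1, a vitamin D hydroxylase, at 1.45 and 0.696 FPKM and then 8.57 and 7.93 FPKM. Vkorc1, which recycles vitamin K, went from 8.005 and 4.72 FPKM to 30.8 and 33.3 FPKM. Abca1, which exports cholesterol from cells, fell from 31.8 and 35.8 FPKM to 7.41 and 8.60 FPKM, a difference of -1.95 (SE 0.38, limma adjusted p = 0.0356).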
